A study of Mus musculus with 12 samples.

Results

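Metallothioneins and the membrane transporters that move zinc, iron and manganese were followed in the lungs of newborn mice kept in hyperoxia or in room air, with or without the gene for sphingosine kinase 1 (Sphk1), a kinase that makes the signaling lipid sphingosine-1-phosphate. The genes were chosen by name: Mt1, Mt2, Slc30a1, Slc39a8, Slc39a14 and Slc40a1. Of these 6 genes, 5 had a transcript of their own among the 22180 genes named from the 41345 transcripts of the array. Slc30a1, which encodes the zinc exporter ZnT1, was found only on 2 transcripts that also carry the symbol 1700034H15Rik, so no value of its own is given.

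The pups belonged to 4 groups of 3 mice, each mouse with its own array: Sphk1-/- mice in hyperoxia (Sphk1-/- HO), Sphk1-/- mice in room air (Sphk1-/- RA), wild type mice in hyperoxia (WT HO) and wild type mice in room air (WT RA). Hyperoxia was 75% oxygen from postnatal day 1 for 7 days, with dams alternated between oxygen and air and litters held to at most 6 pups. The Sphk1-/- line had been crossed back to C57BL/6 for only a few generations before use, and mice of that mixed background served as WT. RNA came from the superior lobe of the right lung after perfusion, so each value is an average over all cells of the lobe, and fewer cells of a type cannot be told apart from less RNA per cell.

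The alveolar type 2 marker Sftpc was at log2 values of 12.59 to 13.40 and the club cell marker Scgb1a1 at 12.50 to 13.02 in all 12 arrays. The median log2 value of an array was 4.99 in Sphk1-/- RA 1, 4.89 in Sphk1-/- HO 1 and 4.76 to 4.85 in the other 10 arrays. Sphk1 itself was at 5.59, 5.78 and 5.84 in Sphk1-/- RA, against 5.37, 4.90 and 5.40 in WT RA, and since the sources used here do not place its probes relative to the deletion, it does not check the genotype labels. The methods describe male pups, but Y-linked transcripts were high in only 4 arrays: Sphk1-/- HO 1, Sphk1-/- HO 2, Sphk1-/- RA 1 and WT RA 3. No WT HO array was among them, so this signal was not balanced between Sphk1-/- HO and WT HO. Every comparison was therefore repeated with the Y-linked genes as a covariate.

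Metallothioneins are small cysteine-rich proteins that bind zinc and copper, buffer free zinc and react with oxidants. Their genes are switched on by the zinc-sensing factor MTF-1 through metal response elements, and also respond to glucocorticoids, inflammatory cytokines and oxidative stress. The ZIP proteins Slc39a8 (ZIP8) and Slc39a14 (ZIP14) carry zinc, manganese and iron into the cytosol, ZnT1 moves zinc out of it, and Slc40a1 (ferroportin) is the iron exporter of vertebrate cells.

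To show what metal-responsive sequence stands next to these genes, RefSeq promoter windows of the mouse assembly GRCm38.p6 were searched for the core of the metal response element (TGCACNC or TGCGCNC) and the core of the antioxidant response element (TGACNNNGC) on both strands. A window ran from 250 bases before to 50 bases after an annotated transcript start, and windows were given for 4 of the 6 genes. The Mt2 window held 4 matches to the metal response element core, at bases -223 to -217, -128 to -122, -50 to -44 and 5 to 11 from the start, and 1 match to the antioxidant core, TGACTCAGC, at -79 to -71. The Mt1 window held 3 metal matches, at -23 to -17, 3 to 9 and 21 to 27, and no antioxidant match. Of all 32851 windows, 25.7% held at least 1 metal match, 1.97% at least 3 and 0.517% at least 4, and 12.4% held at least 1 antioxidant match. The 250 bases before the Mt2 start (chr8:94172368-94172617, plus strand) are shown because they hold most of its matches, and the first 30 bases from the Mt1 start (chr8:94179089-94179118, plus strand) because 2 of its 3 matches lie there (the other, at -23 to -17, falls outside the printed stretch), with the letters of the metal core in capitals:
Mt2: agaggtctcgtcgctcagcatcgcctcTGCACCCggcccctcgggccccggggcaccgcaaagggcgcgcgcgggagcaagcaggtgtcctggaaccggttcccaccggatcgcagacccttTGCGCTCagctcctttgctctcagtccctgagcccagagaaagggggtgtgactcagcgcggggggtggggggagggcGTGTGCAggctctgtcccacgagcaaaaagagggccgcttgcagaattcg
Mt1: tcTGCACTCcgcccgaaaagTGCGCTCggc

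Both genes are read in the same direction on chromosome 8, with their annotated starts 6471 bases apart. For Mt1, 206 of the 250 bases before the start lie inside the annotated span of the gene, which begins at another start upstream. Other starts of Mt1 had no window, so its matches and positions hold for this start only. The absence of an antioxidant match holds for this window only, as the bases beyond it were not searched. The Slc30a1 window held 2 metal matches and 1 antioxidant match, and of the windows at the 2 starts of Slc39a8, the first held 1 antioxidant match and the second 1 metal match. Slc39a14 and Slc40a1 had no window to search. A match is a run of letters, and whether a factor bound there was not measured.

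**Figure D1:**
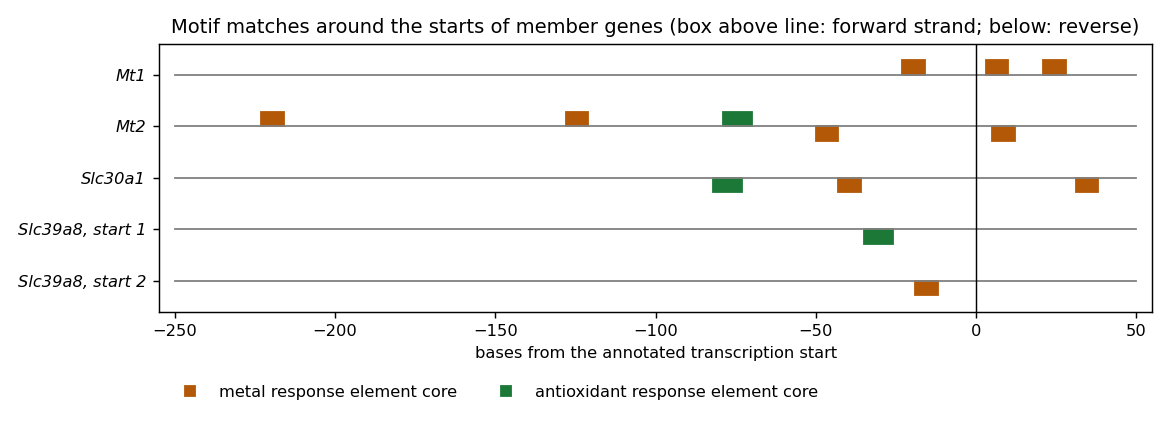
Matches to the metal response element core (orange) and the antioxidant response element core (green) in windows of 250 bases before to 50 bases after annotated transcript starts, with distance from the start in bases on the horizontal axis and one line per start. Mt2 holds 4 metal matches and Mt1 holds 3.

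In hyperoxia Mt1 and Mt2 were lower and Slc40a1 was higher in Sphk1-/- than in WT lungs, and in room air no difference between the genotypes passed the test. Hyperoxia raised Mt1, Mt2 and Slc39a14 and lowered Slc40a1 in WT lungs. In Sphk1-/- lungs the rise of Mt1 was called (limma adjusted p = 0.0449) and the larger rise of Mt2 just missed the threshold (0.0530). In that comparison Mt1 was called in 10 and Mt2 in 9 of 24 alternative analyses. In WT HO against WT RA, 4 of the 5 genes were called at an adjusted p under 0.05 (limma, Benjamini-Hochberg over all 41345 transcripts), 3 higher and 1 lower, where 14.9% of all transcripts were called, 8.58% higher and 6.35% lower. Between Sphk1-/- HO and Sphk1-/- RA, 1 of the 5 was called, Mt1, which was higher, against 2.34% of all transcripts (1.02% higher and 1.32% lower), and 2 of the 5, Mt1 and Mt2, with the replicate number as a block. Between Sphk1-/- HO and WT HO, 3 of the 5 were called, with Mt1 and Mt2 lower and Slc40a1 higher, against 5.74% of all transcripts (2.82% higher and 2.92% lower). In Sphk1-/- RA against WT RA none of the 5 was called, nor did any have an unadjusted p under 0.05, where 1.15% of all transcripts were called. The interaction, that is the hyperoxia response of Sphk1-/- mice minus that of WT mice, called none of the 5 with all 12 arrays, against 4.79% of all transcripts, and 4 of the 5 had an unadjusted p of 0.00626 to 0.0341, where 17.1% of all transcripts had an unadjusted p under 0.05.

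**Figure D2:**
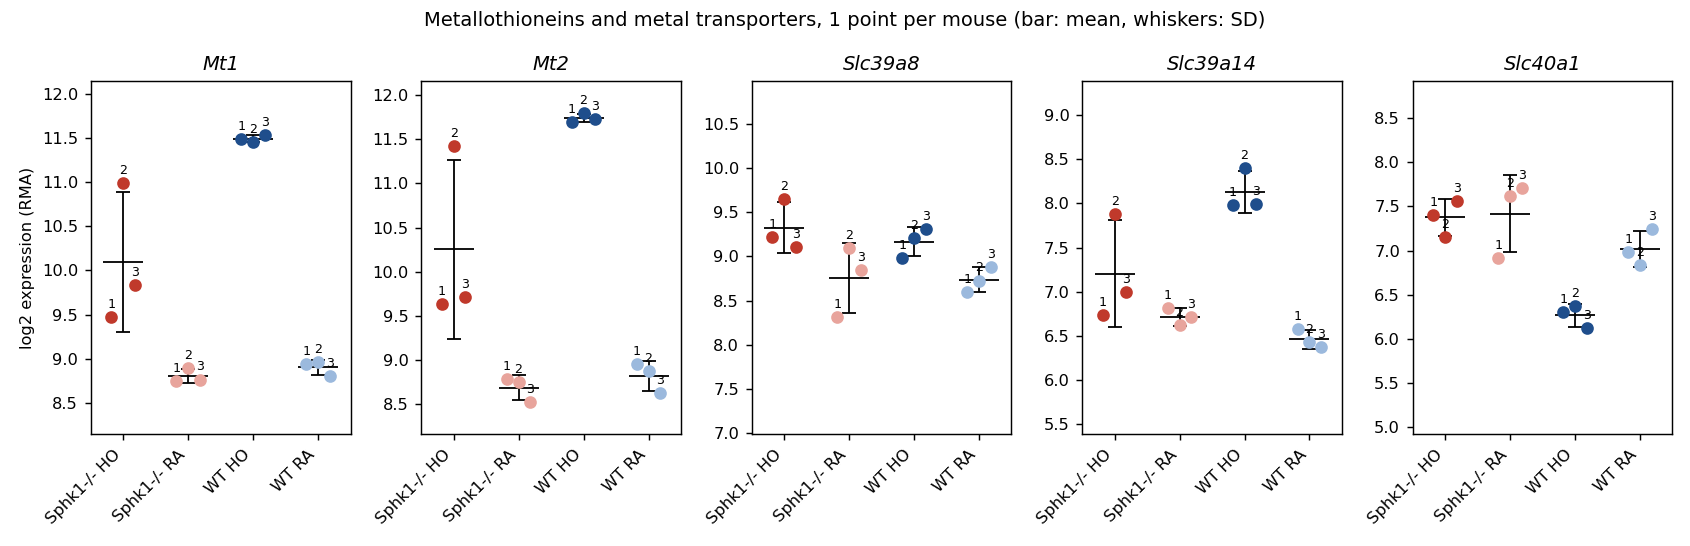
Log2 expression of the 5 measured genes, 1 point per mouse with its replicate number, for Sphk1-/- HO, Sphk1-/- RA, WT HO and WT RA. Bars are means and whiskers are SD of 3 mice, and every panel spans 4 log2 units, centred on its own gene. In Mt1, Mt2 and Slc39a14 the Sphk1-/- HO 2 lung stands near the WT HO lungs and the other Sphk1-/- HO lungs lie below it.

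Mt1, which encodes one of the 2 metallothioneins found in most tissues, had log2 values of 9.47, 10.98 and 9.84 in Sphk1-/- HO and 8.75, 8.90 and 8.77 in Sphk1-/- RA. In WT HO it was at 11.49, 11.45 and 11.54, against 8.94, 8.97 and 8.81 in WT RA. The 3 WT HO lungs lay close together above all other lungs, the room air groups overlapped, and the Sphk1-/- HO lungs lay widely spread between them. Group means were 10.10 ± 0.79 in Sphk1-/- HO, 8.81 ± 0.08 in Sphk1-/- RA, 11.49 ± 0.04 in WT HO and 8.91 ± 0.08 in WT RA (SD, n = 3 each). Mt1 was 6.01-fold higher in WT HO than in WT RA (log2 difference 2.59, SE 0.29, adjusted p = 0.000151) and 2.45-fold higher in Sphk1-/- HO than in Sphk1-/- RA (1.29, SE 0.29, adjusted p = 0.0449). The knockout call held in only 10 of 24 alternative analyses, with adjusted p up to 0.265. Among single arrays it was lost without any WT or Sphk1-/- RA array and without Sphk1-/- HO 3, with adjusted p up to 0.133. Under hyperoxia Mt1 was 2.63-fold lower in Sphk1-/- HO than in WT HO (log2 difference -1.39, SE 0.29, adjusted p = 0.0170), while in room air the difference between Sphk1-/- and WT was -0.10 with a 95% interval of -0.74 to 0.54 (adjusted p = 0.929). The call under hyperoxia held in 16 of 24 alternatives, with adjusted p up to 0.102. Among single arrays it was lost without any WT HO array, without Sphk1-/- HO 1 and without Sphk1-/- HO 3, with adjusted p up to 0.0747.

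Mt2 encodes the other widely expressed metallothionein. Its log2 values were 9.63, 11.43 and 9.71 in Sphk1-/- HO, 8.78, 8.75 and 8.52 in Sphk1-/- RA, 11.70, 11.80 and 11.73 in WT HO and 8.96, 8.88 and 8.63 in WT RA. All WT HO lungs were again above every other lung, the Sphk1-/- HO lungs were above both room air groups, and the room air groups overlapped. Mt2 was 7.57-fold higher in WT HO than in WT RA (log2 difference 2.92, SE 0.37, adjusted p = 0.000327). Between Sphk1-/- HO and Sphk1-/- RA it differed by 1.57 (SE 0.37, adjusted p = 0.0530), which missed the threshold, and with the replicate number as a block it was called (adjusted p = 0.0441). Mt2 was 2.80-fold lower in Sphk1-/- HO than in WT HO (log2 difference -1.48, SE 0.37, adjusted p = 0.0400). This call held in 10 of 24 alternatives, with adjusted p up to 0.156. It was lost without any single array other than Sphk1-/- HO 2 and Sphk1-/- RA 1, with adjusted p up to 0.151. The room air difference between Sphk1-/- and WT was -0.14, with a 95% interval of -0.95 to 0.68.

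The 2 metallothioneins moved together. The level of Mt2 minus that of Mt1 in the same array was 0.16, 0.44 and -0.13 in Sphk1-/- HO and 0.03, -0.15 and -0.24 in Sphk1-/- RA. It was 0.21, 0.34 and 0.20 in WT HO, against 0.02, -0.09 and -0.18 in WT RA. After each gene was set relative to its own mean, the root mean square difference between the 2 profiles over the 12 arrays was 0.21 on the log2 scale, where the profiles themselves had SDs of 1.14 and 1.31.

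Slc39a14, the zinc, iron and manganese importer ZIP14, had log2 values of 6.74, 7.89 and 6.99 in Sphk1-/- HO and 6.82, 6.62 and 6.71 in Sphk1-/- RA. In WT HO it was at 7.988, 8.398 and 7.996, against 6.58, 6.44 and 6.37 in WT RA. The WT HO lungs were above all others, the Sphk1-/- HO 2 lung came next, and the other Sphk1-/- HO lungs fell in the range of the room air lungs or just above it. Slc39a14 was 3.17-fold higher in WT HO than in WT RA (log2 difference 1.66, SE 0.25, adjusted p = 0.000935). For Sphk1-/- mice the hyperoxia difference was 0.49 (SE 0.25, adjusted p = 0.422). The difference of Sphk1-/- HO from WT HO was -0.92 (SE 0.25, adjusted p = 0.0545), which missed the threshold although the arrays did not overlap. It was called in 7 of 24 alternatives, among them the replicate block. The difference of Sphk1-/- RA from WT RA was 0.25 (adjusted p = 0.734).

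Slc39a8, the related importer ZIP8, was at 9.22, 9.65 and 9.11 in Sphk1-/- HO and 8.32, 9.10 and 8.84 in Sphk1-/- RA. Its values were 8.98, 9.21 and 9.31 in WT HO, against 8.60, 8.73 and 8.88 in WT RA. In each genotype the hyperoxic lungs were above the room air lungs without overlap, by 0.57 in Sphk1-/- mice (SE 0.21, adjusted p = 0.215) and by 0.43 in WT mice (SE 0.21, adjusted p = 0.217), and neither difference passed the test. Slc39a8 differed by 0.16 between Sphk1-/- HO and WT HO, with a 95% interval of -0.30 to 0.62, and by 0.02 between Sphk1-/- RA and WT RA, with an interval of -0.44 to 0.47. The 2 ZIP importers chosen here thus had hyperoxia differences of 1.66 and 0.43 in WT mice, and whether these differ was not tested.

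Slc40a1, the iron exporter ferroportin, had log2 values of 7.40, 7.16 and 7.56 in Sphk1-/- HO and 6.92, 7.62 and 7.71 in Sphk1-/- RA. It was at 6.30, 6.37 and 6.13 in WT HO, against 6.99, 6.84 and 7.24 in WT RA. The 3 WT HO lungs were below the other 9, and the other groups overlapped. Slc40a1 was 2.16-fold higher in Sphk1-/- HO than in WT HO (log2 difference 1.11, SE 0.21, adjusted p = 0.00974), a call that held in all 24 alternatives. It was 1.69-fold lower in WT HO than in WT RA (log2 difference -0.76, SE 0.21, adjusted p = 0.0315), and this call held in 17 of 24 alternatives and was lost without WT RA 1, WT RA 3 or any single WT HO array, with adjusted p up to 0.106. The hyperoxia difference in Sphk1-/- mice was -0.04, with a 95% interval of -0.50 to 0.42 (adjusted p = 0.961). The room air difference of Sphk1-/- from WT was 0.40 (adjusted p = 0.471).

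Arrays of the 2 groups did not overlap for 3 of the 5 genes in Sphk1-/- HO against Sphk1-/- RA, where this was so for 17.1% of all transcripts. They did not overlap for all 5 in WT HO against WT RA (34.3% of all transcripts), for 4 in Sphk1-/- HO against WT HO (23.6%) and for 1 in Sphk1-/- RA against WT RA (18.8%). The exception in Sphk1-/- HO against WT HO was Slc39a8, and the gene without overlap in room air was Slc39a14.

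**Figure D3:**
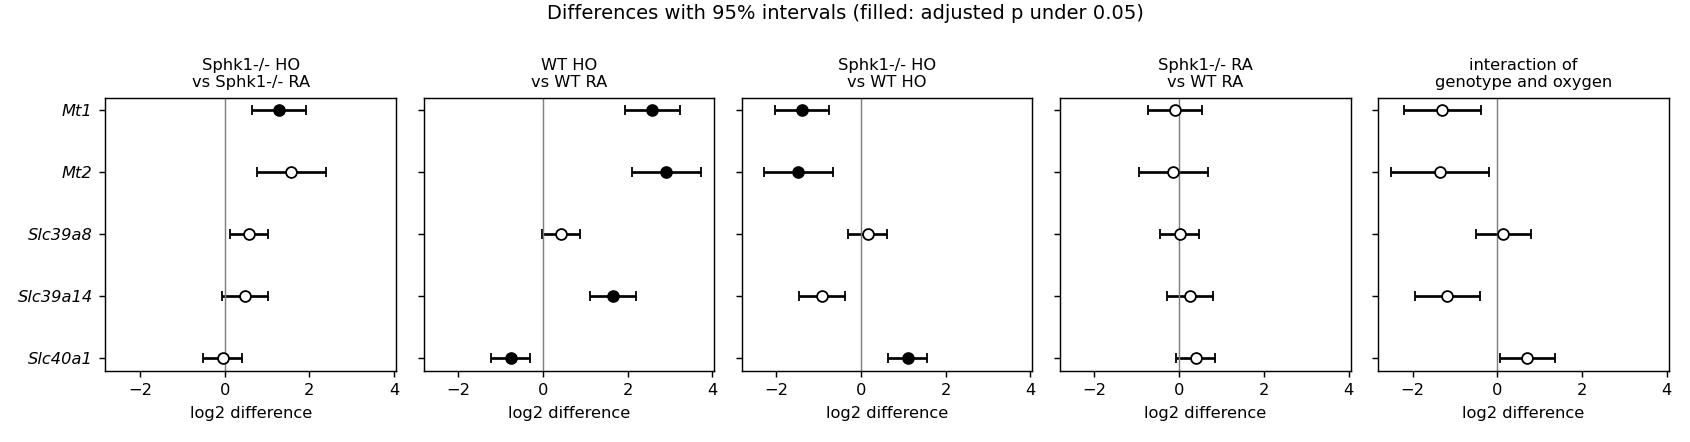
Log2 differences of the 5 genes with 95% intervals in each comparison, where filled points had an adjusted p under 0.05. Mt1, Mt2 and Slc39a14 were higher and Slc40a1 lower in WT HO than in WT RA, and in room air every interval of Sphk1-/- minus WT included 0.

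A single lung carried much of the spread among Sphk1-/- HO mice. Relative to the WT HO mean, Sphk1-/- HO 2 was at -0.51 for Mt1, where Sphk1-/- HO 1 and 3 were at -2.02 and -1.65. For Mt2 the same lung was at -0.32, against -2.11 and -2.03 in the other Sphk1-/- HO lungs, and for Slc39a14 at -0.24, against -1.39 and -1.13. For Slc40a1 it was at 0.89, with 1.14 and 1.30 in the others, so ferroportin stayed higher than in WT HO in all 3 lungs. With all 12 arrays the interaction was -1.29 for Mt1 (SE 0.41, adjusted p = 0.116), -1.35 for Mt2 (SE 0.52, adjusted p = 0.206) and -1.18 for Slc39a14 (SE 0.35, adjusted p = 0.0916). For Slc40a1 it was 0.71 (SE 0.30, adjusted p = 0.241) and for Slc39a8 0.14 (SE 0.30, adjusted p = 0.865). Without Sphk1-/- HO 2, the interaction was called for Mt1 (-1.74, adjusted p = 0.000513), Mt2 (-1.93, adjusted p = 0.000308) and Slc39a14 (-1.52, adjusted p = 0.00291). That lung was singled out by its values for these same genes, so the fit without it is no separate support. Of 23 alternatives, the interaction was called in 3 for Mt1, 1 for Mt2 and 3 for Slc39a14.

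Mean scores of genes known to respond to oxidants and inflammation were higher in hyperoxia in both genotypes. Within Sphk1-/- HO they were highest in the same lung as Mt1 and Mt2. Their part in the result was not tested. Single genes departed from this, such as the glutathione transferase gene Gsta3, at 6.09, 5.95 and 6.15 in Sphk1-/- HO. To score a list, each gene was first set relative to its own mean over the 12 arrays and the log2 values were then averaged over genes. For Mt1 and Mt2 together it was -0.30, 1.35 and -0.08 in Sphk1-/- HO, between -1.21 and -1.02 in Sphk1-/- RA, between 1.74 and 1.78 in WT HO and between -1.13 and -0.90 in WT RA. For 10 targets of NRF2, the oxidant-responsive factor, it was -0.11, 0.61 and 0.13 in Sphk1-/- HO, between -0.99 and -0.65 in Sphk1-/- RA, between 1.16 and 1.25 in WT HO and between -0.76 and -0.50 in WT RA. Sphk1-/- HO 2 was thus the highest of its group in both lists.

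All 10 NRF2 targets were called higher in WT HO than in WT RA (median log2 difference 1.74), beside 8.58% of all transcripts. In Sphk1-/- HO against Sphk1-/- RA, 6 of the 10 were called higher (median 1.00), beside 1.02% of all transcripts, and with the replicate block Nqo1 was called as well (adjusted p = 0.0129). Gclc, which encodes the catalytic subunit of the rate-limiting enzyme of glutathione synthesis, differed by 1.15 in Sphk1-/- mice (adjusted p = 0.0477, called in 10 of 24 alternatives and lost without any single array other than Sphk1-/- HO 1 and Sphk1-/- HO 2) and by 2.69 in WT mice (adjusted p = 5.45e-05). Its log2 values were 9.78, 11.08 and 10.11 in Sphk1-/- HO, against 11.50, 11.70 and 11.41 in WT HO, with Sphk1-/- HO 2 again the nearest to WT HO. Gsta3, a glutathione transferase, differed by 0.12 in Sphk1-/- mice (adjusted p = 0.817) and by 2.39 in WT mice (adjusted p = 3.26e-06). Between the genotypes, 6 of the 10 targets were called lower in Sphk1-/- HO than in WT HO, beside 2.92% of all transcripts. Their differences ran from -2.06 to -0.41, with a median of -0.99. The interaction was called lower for 3, where 4.79% of all transcripts were called in either direction.

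The acute phase and IL-6 response list had a score of 0.15, 1.58 and 0.35 in Sphk1-/- HO and between 1.11 and 1.25 in WT HO, so Sphk1-/- HO 2 was above every WT HO lung. In WT HO against WT RA all 9 measured genes of this list were called higher, beside 8.58% of all transcripts. In Sphk1-/- HO against Sphk1-/- RA 2 of the 9 were called higher, beside 1.02%, and in Sphk1-/- HO against WT HO 1 was called lower, beside 2.92%. With the replicate block Hp was also called higher in Sphk1-/- HO than in Sphk1-/- RA (adjusted p = 0.0356). Serpina3n, a secreted inhibitor of serine proteases, was at 9.21, 11.16 and 8.12 in Sphk1-/- HO, against 11.99, 12.03 and 12.11 in WT HO. Saa3, a serum amyloid A gene of the same list, went the other way, at 8.50, 10.58 and 9.10 in Sphk1-/- HO, against 7.61, 8.42 and 7.23 in WT HO. The glucocorticoid-responsive list followed another order, with -0.61, 0.26 and -0.68 in Sphk1-/- HO, 0.25 to 0.49 in Sphk1-/- RA, 0.42 to 0.75 in WT HO and -0.76 to -0.49 in WT RA. Of its 10 genes, 8 were called higher in WT HO than in WT RA, beside 8.58% of all transcripts. In Sphk1-/- HO against Sphk1-/- RA 4 were called lower, beside 1.32% of all transcripts. Between the genotypes, 4 were called lower in Sphk1-/- HO than in WT HO, beside 2.92% of all transcripts. In room air 4 were called higher in Sphk1-/- than in WT, where 1.15% of all transcripts were called in either direction. The interaction was called lower for 6, where 4.79% of all transcripts were called in either direction.

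**Figure D4:**
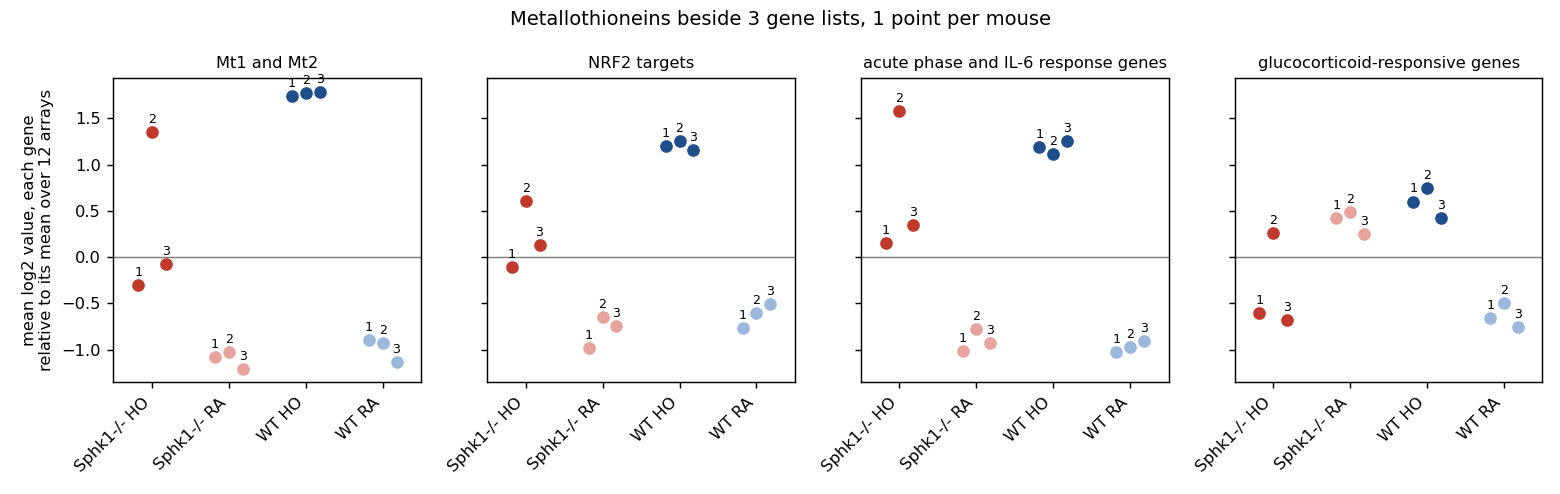
Mean log2 value of Mt1 and Mt2 and of 3 gene lists, each gene relative to its mean over 12 arrays, 1 point per mouse with its replicate number. In all 4 panels Sphk1-/- HO 2 is the highest lung of its group, while the Sphk1-/- RA lungs overlap the WT RA lungs for the metallothioneins, the NRF2 targets and the acute phase genes and lie above them for the glucocorticoid-responsive genes.

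Markers of other cells also moved with hyperoxia. For the counts below, the share of all transcripts called was 14.9% in WT HO against WT RA and 5.74% in Sphk1-/- HO against WT HO. The list of 8 other macrophage and monocyte markers had scores of -0.21 to 0.46 in Sphk1-/- HO, -0.77 to -0.09 in Sphk1-/- RA, 0.45 to 0.72 in WT HO and -0.51 to -0.20 in WT RA, with 5 of 8 called higher in WT HO than in WT RA. Of 6 alveolar macrophage markers, 3 were called higher in WT HO than in WT RA, and 2 were called lower in Sphk1-/- HO than in WT HO. The neutrophil list was at 0.17, 1.55 and 0.05 in Sphk1-/- HO and -0.23 to 0.82 in WT HO, and none of its 6 genes was called in any comparison. Of 7 alveolar type 2 markers, 6 were called lower in WT HO than in WT RA and 3 higher in Sphk1-/- HO than in WT HO, and of 7 alveolar type 1 markers, 3 were called higher and 2 lower in WT HO than in WT RA. All 6 fibroblast markers were called in WT HO against WT RA, with Col1a1, Col1a2, Col13a1 and Tcf21 lower and Pdgfra and Inmt higher. In Sphk1-/- HO against WT HO, Col1a1 and Col1a2 were called higher and Pdgfra and Inmt lower. Col1a1, a collagen chain, was at 11.38, 10.74 and 11.50 in Sphk1-/- HO, 11.70, 11.56 and 11.45 in Sphk1-/- RA, 9.71, 9.96 and 9.72 in WT HO and 11.49, 11.36 and 11.38 in WT RA, so that, as for Slc40a1, the WT HO lungs were below the other 9. For the 6 endothelial markers the scores were -0.41 to 0.05 in Sphk1-/- HO and -0.53 to -0.44 in WT HO, against 0.26 to 0.53 in Sphk1-/- RA and 0.21 to 0.26 in WT RA. The erythroid membrane gene Slc4a1, the only measured marker of 6 on the erythroid list, was at 6.91, 6.40 and 7.43 in Sphk1-/- HO, 7.14, 7.27 and 7.39 in Sphk1-/- RA, 4.86, 5.18 and 5.23 in WT HO and 8.40, 9.23 and 8.86 in WT RA. Like Slc40a1 it was lowest in the WT HO lungs, and it was called higher in Sphk1-/- HO than in WT HO (log2 difference 1.82, adjusted p = 0.00201). Ferroportin is abundant in macrophages that recycle iron and in erythroid precursors, and the part of these shifts in the values of Slc40a1 and of the other genes followed here was not tested.

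Among the other genes of metal handling, 26 of 73 measured genes were called in WT HO against WT RA, 19 higher and 7 lower, with a median log2 difference of 0.18, beside 14.9% of all transcripts and a median of 0.0086. In Sphk1-/- HO against Sphk1-/- RA it was 6 of 73, with 4 higher and 2 lower and a median of 0.10, beside 2.34% of all transcripts and a median of -0.0033. With the replicate block it was also 6 there, with 5 higher and 1 lower. In Sphk1-/- HO against WT HO it was 9 of 73, with 4 higher and 5 lower and a median of -0.07, beside 5.74% of all transcripts and a median of -0.0095. In room air 3 of 73 were called between the genotypes, beside 1.15% of all transcripts. The interaction called 5 of 73, beside 4.79% of all transcripts.

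The remaining metallothioneins, Mt3 and Mt4, which are known mainly from brain and from stratified epithelium, were not called in any comparison. Mt3 was at 5.75 to 6.07 in Sphk1-/- HO, 5.35 to 5.59 in Sphk1-/- RA, 5.39 to 5.56 in WT HO and 5.23 to 5.69 in WT RA. Of the 8 measured ZnT exporters other than Slc30a1 none was called in any comparison, and their differences in WT HO against WT RA ran from -0.32 to 0.53. The largest of these was that of Slc30a4 (adjusted p = 0.153), which moves zinc into intracellular vesicles.

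Among the 12 other ZIP importers, the zinc importer Slc39a4 was at 7.51, 7.75 and 8.13 in Sphk1-/- HO and 6.69, 7.26 and 7.15 in Sphk1-/- RA. In WT HO it was at 8.25, 8.44 and 8.49, against 7.14, 6.97 and 7.39 in WT RA. It rose in WT HO (log2 difference 1.23, adjusted p = 0.00156), and its difference of 0.76 in Sphk1-/- HO against Sphk1-/- RA did not pass (adjusted p = 0.0765), but was called with the replicate block (adjusted p = 0.0371). Slc39a10, another plasma membrane importer, fell by 0.58 in WT mice under hyperoxia (adjusted p = 0.00832).

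Slc39a2, also a zinc importer, was called in the knockout. It was at 7.15, 6.77 and 6.97 in Sphk1-/- HO, 5.61, 5.45 and 5.48 in Sphk1-/- RA, 5.85, 5.46 and 6.25 in WT HO and 5.79, 6.10 and 5.85 in WT RA. The 3 Sphk1-/- HO lungs were above the other 9. The hyperoxia difference was 1.45 in Sphk1-/- mice (adjusted p = 0.00283) and -0.06 in WT mice (adjusted p = 0.896), with an interaction of 1.51 (SE 0.27, adjusted p = 0.00809).

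Iron genes made up the largest list, with 12 of 34 called higher and 4 lower in WT HO against WT RA, beside 8.58% and 6.35% of all transcripts. Fth1, the ferritin heavy chain that stores iron, was at 12.30, 12.46 and 12.26 in Sphk1-/- HO, 11.80, 11.97 and 11.94 in Sphk1-/- RA, 12.91, 12.87 and 12.83 in WT HO and 11.94, 12.02 and 11.93 in WT RA. It rose by 0.91 in WT mice under hyperoxia (adjusted p = 0.000258) and its difference in Sphk1-/- HO against WT HO was -0.53 (adjusted p = 0.0167). Hmox1, the heme oxygenase that frees iron from heme, rose in both genotypes, by 1.53 in Sphk1-/- mice (adjusted p = 0.0222) and by 1.82 in WT mice (adjusted p = 0.00167). So did Lcn2, the siderophore-binding lipocalin, by 1.27 in Sphk1-/- mice (adjusted p = 0.000871) and 1.21 in WT mice (adjusted p = 0.000131). Hmox1 is also on the NRF2 list and Lcn2 on the acute phase list. The heme transporter Slc48a1 rose by 1.14 in WT mice under hyperoxia (adjusted p = 0.000395).

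Of the 4 iron genes that fell in WT HO, 2 encode membrane enzymes that act on iron. Heph, the ferroxidase hephaestin that works with ferroportin in the gut, was at 6.88, 6.44 and 7.07 in Sphk1-/- HO, against 5.81, 6.32 and 6.12 in WT HO, and fell by 1.38 in WT mice under hyperoxia (adjusted p = 0.00177). Cybrd1, a ferric reductase, fell by 0.87 in WT mice under hyperoxia (adjusted p = 0.0211), a call lost without WT HO 2, WT HO 3, WT RA 2 or WT RA 3. The others were Ireb2, the iron regulatory protein 2 gene, which fell by 0.76 (adjusted p = 0.00155), and the mitochondrial iron importer Slc25a37. The values of Slc25a37 were 8.14, 8.37 and 8.36 in Sphk1-/- HO, 8.12, 7.99 and 8.38 in Sphk1-/- RA, 8.66, 8.47 and 8.53 in WT HO and 9.64, 9.79 and 9.91 in WT RA, so WT RA stood above the other groups. Slc25a37 is used most heavily by erythroid cells, and its difference in Sphk1-/- RA against WT RA was -1.62 (adjusted p = 0.000649), beside -1.56 for Slc4a1 (adjusted p = 0.0161), whose part in it was not tested.

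**Figure D5:**
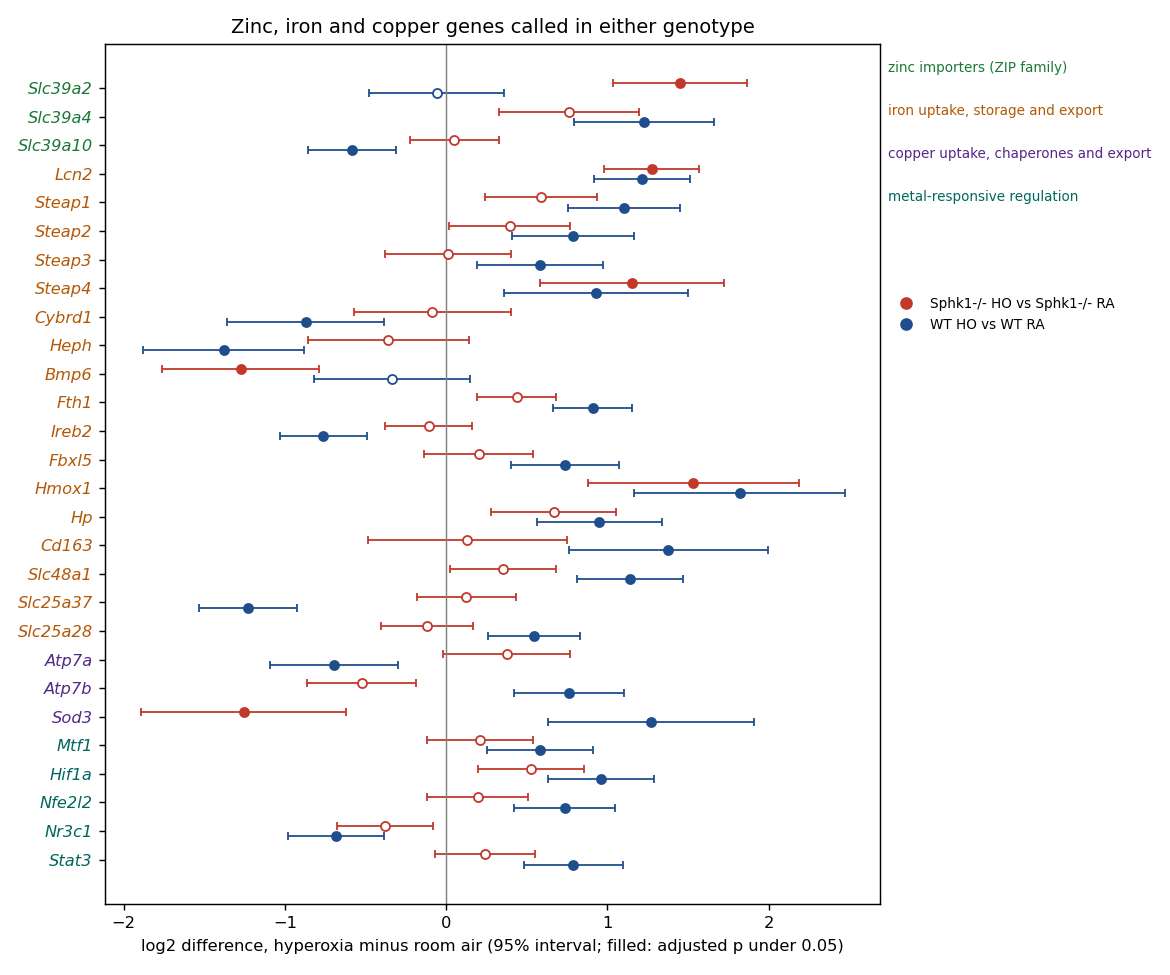
Log2 differences with 95% intervals for the zinc, iron, copper and regulatory genes called in at least one genotype, in Sphk1-/- HO against Sphk1-/- RA (red) and WT HO against WT RA (blue), filled where the adjusted p was under 0.05. Slc39a2 and Bmp6 were called in Sphk1-/- mice and not in WT mice (the interaction was called for Slc39a2 and not for Bmp6), and Lcn2, Hmox1, Steap4 and Sod3 in both, Sod3 with opposite signs. With the replicate block Steap4 (adjusted p = 0.0655) and Sod3 were not called in Sphk1-/- mice, and Slc39a4 and Hp were.

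Among 10 measured copper genes, the copper pump Atp7b was at 6.55, 6.88 and 6.72 in Sphk1-/- HO, 7.13, 7.31 and 7.28 in Sphk1-/- RA, 7.13, 7.06 and 7.33 in WT HO and 6.31, 6.70 and 6.22 in WT RA. It rose by 0.76 in WT mice under hyperoxia (adjusted p = 0.00617), and the interaction was -1.29 (SE 0.22, adjusted p = 0.00616). The related pump Atp7a had the opposite interaction, 1.07 (SE 0.25, adjusted p = 0.0355). Sod3, the extracellular copper and zinc superoxide dismutase, rose by 1.27 in WT mice under hyperoxia (adjusted p = 0.0121) and fell by 1.26 in Sphk1-/- HO against Sphk1-/- RA (adjusted p = 0.0495), a call that held in 9 of 24 alternatives and was lost with the replicate block (adjusted p = 0.0620).

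Of 7 regulators, 4 rose and 1 fell in WT HO against WT RA, beside 8.58% and 6.35% of all transcripts. Mtf1, which encodes the zinc-sensing activator of the metallothionein genes, was at 7.23, 7.16 and 7.16 in Sphk1-/- HO, 6.71, 6.93 and 7.27 in Sphk1-/- RA, 7.34, 7.45 and 7.43 in WT HO and 7.00, 6.74 and 6.73 in WT RA. Its difference was 0.58 in WT mice (adjusted p = 0.0226, lost without WT HO 2, WT HO 3, WT RA 2 or WT RA 3) and 0.21 in Sphk1-/- mice (adjusted p = 0.618). Hif1a (0.96), Stat3 (0.79) and Nfe2l2 (0.74), the gene of NRF2, rose in WT HO, and the glucocorticoid receptor gene Nr3c1 fell by 0.68. None of the 7 was called in Sphk1-/- HO against Sphk1-/- RA.

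The genes most like each metallothionein or transporter were sought among the 22175 other genes by the root mean square difference of log2 values over the 12 arrays, each gene relative to its own mean. For Mt1 the nearest were Gnl3 (0.158), a nucleolar protein gene, Tinagl1 (0.197) and Gclc (0.201). Gnl3 was at 6.93, 8.31 and 7.61 in Sphk1-/- HO, against 9.09, 9.10 and 8.87 in WT HO. For Mt2 they were the chemokine gene Cxcl17 (0.214), F3 (0.215), which encodes tissue factor, and the growth factor gene Nrg1 (0.255). F3 was at 8.96, 11.10 and 9.04 in Sphk1-/- HO, against 11.26, 11.49 and 11.10 in WT HO, with Sphk1-/- HO 2 at the level of WT HO.

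For Slc39a14 the nearest were the anti-apoptotic gene Bcl2l1 (0.130), the stress-response factor gene Atf4 (0.159) and Eva1c (0.164). Bcl2l1 had values of 7.11, 8.01 and 7.29 in Sphk1-/- HO, against 8.45, 8.53 and 8.33 in WT HO. For Slc40a1 they were Cybrd1 (0.132), 9530003J23Rik (0.171) and Bmp5 (0.183), so the gene nearest to the iron exporter was a ferric reductase of the iron list. Cybrd1 was at 6.06, 5.86 and 6.45 in Sphk1-/- HO, 5.69, 6.39 and 6.55 in Sphk1-/- RA, 5.19, 5.02 and 5.08 in WT HO and 5.79, 5.98 and 6.13 in WT RA. For Slc39a8, which varied least, with an SD of 0.34 over the arrays, they were Naprt (0.135), Dusp5 (0.136) and Rev1 (0.137).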

How the data were processed

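RNA of 12 single mouse lungs was measured on Affymetrix MoGene 2.0 ST arrays, 1 per mouse. The deposited values are log2 expression per transcript, which the authors made in Partek Genomics Suite 6.6 by robust multi-array averaging (RMA), in which arrays are background corrected, quantile normalized and summarized over probes. Quantile normalization gives the arrays similar distributions, so a shift common to most transcripts would not be seen. The array's genome build was not given in the sources used here. Groups and replicate numbers came from the submitters' labels.

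Genes were named through the platform's gene table, from transcripts with 1 symbol, taking the transcript with the highest mean where there were several. Each of the 5 measured genes had 1. Of the 41345 transcripts, 23521 had 1 symbol, 1820 several and 16004 were not listed.

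Differences were tested with limma 3.58.1 in R 4.3.3, with 1 mean per group over all 12 arrays, eBayes (prior of 3.247 degrees of freedom) and Benjamini-Hochberg adjustment over all transcripts, and were called at an adjusted p under 0.05 with no minimum fold. For each transcript the fit used a spread that all 4 groups shared. The procedure was tested on simulated data. Arrays have no sequencing depth, and 3 mice per group limit the precision. The alternatives were the ordinary residual variance, an intensity trend with a robust prior, leaving out dim transcripts (highest group mean under the 40th percentile), 1 transcript per gene, only the groups compared, another quantile normalization, median centring, the mean over transcripts, a replicate block, a Y-linked covariate, array weights, leaving out Sphk1-/- RA 1 with Sphk1-/- HO 1, and leaving out each array.

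Same-numbered arrays of Sphk1-/- HO and Sphk1-/- RA deviated together from their group means in all 3 pairs. Their correlations were 0.19 to 0.40, against -0.29 to 0.15 for other pairs of these groups. The largest, 0.40, was that of the arrays numbered 1, which had the highest medians and high Y-linked transcripts. The others were 0.19 and 0.21. Deviations cancel out within a group, so the 3 correlations are not independent. The replicate numbers were used as a block on this ground. For the calls and counts stated for Sphk1-/- HO against Sphk1-/- RA, the result is given beside the other where it changes them. In no other pair of groups were all 3 correlations over 0.1. The block was nevertheless fitted over the arrays of all groups, so it also paired groups that did not show this pattern. What a shared number stands for is not stated in the labels.

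The genes followed, the lists and the tests were chosen with earlier results of these data known. Besides the 6 genes, the text names up to 4 genes per metal list and up to 2 per context list with the smallest p in WT HO against WT RA and in the interaction, and the 3 nearest profiles of each gene. Slc4a1, Hmox1, Heph, Bmp6, Steap4, Nqo1, Hp and the lung markers fall outside this rule and were chosen after their values were seen. Lists are described by counts and medians, with no set test.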

Additional observations from a re-analysis of the deposited data

Results flagged for a closer look

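The genes below were picked out because their hyperoxia response differed between the genotypes in the limma test of the interaction, given as the log2 response of Sphk1-/- mice minus that of WT mice. None of the 5 measured metallothionein and transporter genes was among them with all 12 arrays.

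Among metal genes, the zinc importer Slc39a2 had an interaction of 1.51 (adjusted p = 0.00809), the mitochondrial iron importer Slc25a37 1.35 (adjusted p = 0.00233) and the copper pump Atp7a 1.07 (adjusted p = 0.0355). The copper pump Atp7b had -1.29 (adjusted p = 0.00616) and the extracellular superoxide dismutase Sod3 -2.52 (adjusted p = 0.00479). The calls of Slc39a2, Slc25a37, Atp7b and Sod3 held in all 23 alternatives for the interaction, and that of Atp7a in 10 of 23.

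Among NRF2 targets, Gsta3 had -2.27 (adjusted p = 0.000124), Gclc -1.55 (adjusted p = 0.0369, called in 8 of 23 alternatives) and Osgin1 -1.30 (adjusted p = 0.00861). Among glucocorticoid-responsive genes, Sult1a1 had -2.10 (adjusted p = 0.000117), Klf9 -2.29 (adjusted p = 0.00180) and Pdk4, which encodes a kinase that holds back pyruvate oxidation, -2.85 (adjusted p = 0.00326). Of these, Klf9 was at 9.45, 10.10 and 9.17 in Sphk1-/- HO, 10.28, 10.78 and 10.61 in Sphk1-/- RA, 10.25, 10.58 and 10.29 in WT HO and 8.94, 9.24 and 9.03 in WT RA.

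Of the acute phase genes, Serpina3n had -4.44 (adjusted p = 0.00971) and Saa3, a serum amyloid A gene, 2.59 (adjusted p = 0.0435, called in 11 of 23 alternatives). Saa3 was at 8.50, 10.58 and 9.10 in Sphk1-/- HO, 4.36, 4.29 and 4.61 in Sphk1-/- RA, 7.61, 8.42 and 7.23 in WT HO and 4.99, 5.72 and 5.42 in WT RA, so that it was highest in Sphk1-/- HO 2, the lung in which Mt1 and Mt2 were also highest among Sphk1-/- HO.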

How the results depend on the processing

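Of 595 alternative values for the differences of the 5 genes, 516 kept their direction and their side of the threshold, 43 kept the direction but lost the call, 23 gained one and 13 changed sign. In WT HO against WT RA, Mt1, Mt2 and Slc39a14 were called under all 24 alternatives, and the number of called genes was 3 to 4 without single arrays. The Slc40a1 call there was lost with the ordinary residual variance (adjusted p = 0.0588) and with median centring (adjusted p = 0.0673). Between Sphk1-/- HO and Sphk1-/- RA, 0 of the 5 genes, in place of 1, were called with the ordinary residual variance, with only the arrays compared, with median centring and with the Y-linked covariate, 2 with the trend and robust prior, without dim transcripts, with 1 transcript per gene, with another quantile normalization, with the replicate block and with array weights, and 0 to 2 without single arrays. Between Sphk1-/- HO and WT HO, 1 gene in place of 3 was called with the ordinary residual variance, with only the arrays compared and without Sphk1-/- RA 1 and Sphk1-/- HO 1, and 1 to 4 without single arrays. The interaction called 2 genes in place of 0 with 1 transcript per gene and with array weights, and 0 to 3 without single arrays. The cause of these changes was not tested, except that 1 transcript per gene and the filter on dim transcripts leave fewer tests to adjust for and only the arrays compared leaves fewer samples. The differences that changed sign were small and none was called. For Slc40a1 in Sphk1-/- HO against Sphk1-/- RA it was 0.0466 with the Y-linked covariate and -0.29 to 0.10 without single arrays. For Slc39a8 it was -0.0349 in Sphk1-/- RA against WT RA with median centring and -0.15 to 0.23 without single arrays, and -0.0018 to 0.27 without single arrays in Sphk1-/- HO against WT HO. Its interaction was -0.0921 with array weights, -0.0222 without Sphk1-/- RA 1 and Sphk1-/- HO 1, and -0.0738 to 0.31 without single arrays. Of the 73 other metal genes, 12 in place of 6 were called in Sphk1-/- HO against Sphk1-/- RA with 1 transcript per gene, 2 with only the arrays compared and 2 to 7 without single arrays. In Sphk1-/- RA against WT RA, 1 in place of 3 was called with only the arrays compared and with median centring, and 1 to 3 without single arrays. Between Sphk1-/- HO and WT HO, 14 in place of 9 were called with 1 transcript per gene and with array weights, 2 with only the arrays compared and 2 to 13 without single arrays. The interaction called 8 in place of 5 with the ordinary residual variance and with another quantile normalization, 10 with the trend and robust prior and without dim transcripts, 12 with 1 transcript per gene and 13 with array weights. Over 18 pairs of arrays with the same replicate number in different groups, the correlation of deviations from the group means was -0.06 to 0.40, with 15 pairs above 0 and 9 over 0.1, against -0.29 to 0.22 for other pairs, and 7 of 12 arrays correlated best with an array of their own number. All 3 pairs were over 0.1 between Sphk1-/- HO and Sphk1-/- RA only. With the replicate block, fitted over the arrays of all groups, the called genes in Sphk1-/- HO against Sphk1-/- RA were Mt1 and Mt2 (adjusted p = 0.0441 for Mt2). Slc39a14 was called with the block in Sphk1-/- HO against WT HO (adjusted p = 0.0493), where same-numbered arrays had correlations of only 0.06 to 0.07. No other call of the 5 genes changed.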
